A study of Saccharomyces cerevisiae with 4 samples.

Results

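The transcripts of the RNA polymerase subunit genes were compared between Saccharomyces cerevisiae cells mutated in the protein O-mannosyltransferase genes PMT1 and PMT2 and wild type cells. Members were chosen by name: probe sets annotated to exactly 1 gene symbol that consists of RPA, RPB, RPC or RPO and a number, plus RET1. Each gene was read from 1 probe set, the one with the highest mean log2 signal. This gave 32 genes of the 5656 tested, on 38 of the 9335 probe sets of the array, since RPA190 has 7 probe sets and each of the other genes 1. Of these genes, 7 encode subunits found only in RNA polymerase I (Pol I), 10 only in Pol III and 7 only in Pol II, while 2 are shared by Pol I and III and 5 by all 3 nuclear enzymes. The rule also takes in RPO41, which encodes the single-subunit polymerase of mitochondria and belongs to none of the nuclear enzymes, so it is kept apart. All 32 symbols were the same in the R64 annotation, and all 32 genes lay above the background level of 26.2 on every array, at signals from 28.4 to 2693.

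The pmt1 pmt2 mutant (n = 2 arrays) and wild type SEY6210 (n = 2 arrays), which shares its background, were diluted from overnight cultures to an optical density of 0.1, grown to 0.45 and then kept growing for 3 hours. The sources used here do not say how PMT1 and PMT2 were altered or which other alleles the SEY6210 background carries. Total RNA was labelled with biotin for the Affymetrix yeast array, and the design text calls the samples of a condition biological samples. Within each group the arrays are numbered 1 and 2.

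PMT1 measured 111 and 104 on the pmt1 pmt2 arrays, against 1178 and 809 on the wild type arrays, and PMT2 measured 11.9 and 15.5 against 2646 and 2771, so the targeted genes match the labels. Markers of alpha cells were detected on every array (4 of 4 genes, signals from 732 to 5518), whereas 5 of 7 markers of a cells lay under background on every array. The exceptions were MFA1 and MFA2. MFA1 measured 43.8 and 30.3 in pmt1 pmt2, against 24.6 and 38.8 in wild type. MFA2 measured 12.1 and 20.5 against 126 and 96.0, so it was above background in wild type only (limma adjusted p = 0.084). The ratio of the 3' to the 5' actin control probe set was 3.15 on pmt1 pmt2 array 1 and 2.99 on wild type array 1, but 1.32 on pmt1 pmt2 array 2 and 1.38 on wild type array 2. Arrays with the same number are therefore also compared with each other below. Between them the median log2 difference of all genes, mutant minus wild type, was -0.15 for the arrays numbered 1 and 0.21 for those numbered 2.

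Pol I makes the large ribosomal RNA precursor, Pol III makes transfer RNAs and 5S ribosomal RNA, and Pol II makes messenger RNAs. Each nuclear enzyme has its own pair of large subunits that form the active centre, a stalk and peripheral subunits, and the enzymes share a set of small common subunits. Pol I and Pol III also share an assembly platform whose counterpart in Pol II is encoded by separate genes. In yeast, genes for Pol I and Pol III subunits belong to the growth-regulated programme for making ribosomes, and a promoter element called PAC takes its name from polymerases A and C, older names of Pol I and Pol III.

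Most subunit genes of the ribosomal RNA and transfer RNA polymerases had lower signals in pmt1 pmt2 than in wild type, and the genes of Pol II alone differed less. The median log2 difference, mutant minus wild type, was -0.39 over the 7 Pol I genes, -0.37 over the 10 Pol III genes, -0.30 over the 2 genes shared by Pol I and III, -0.48 over the 5 common genes and -0.13 over the 7 Pol II genes, against 0.027 over all genes. The differences were small beside the error of single genes: the standard error of a member's log2 difference was 0.34 to 0.52, and 0 of 32 passed limma's test at adjusted p under 0.05 (Benjamini-Hochberg over 5656 genes, adjusted p from 0.568 to 0.998), where the share of all genes called was 0.389% (0.106% lower and 0.283% higher). At limma's unadjusted p under 0.05, RPA43 and RPC53 were lower, 2 of 32 genes, against 1.8% of all genes lower at that level, and 0 of 32 were higher, against 5.37% of all genes. With 2 arrays a group, an exact permutation test of 1 gene cannot go below p = 0.333.

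The direction was nevertheless shared by many members. Of the 32 genes, 29 had a log2 difference below 0, against 47.5% of all genes. In 14 genes both pmt1 pmt2 arrays lay under both wild type arrays, against 14.7% of all genes, and in 0 genes did both lie above, against 18.5% of all genes. Those 14 were 7 of 10 Pol III genes, 2 of 7 Pol I genes (RPA43 and RPA34), both genes shared by Pol I and III, 3 of 5 common genes (RPB5, RPO26 and RPB8) and 0 of 7 Pol II genes. The count of 14 moved with the scaling, to 15 after quantile normalization and 19 after each array was centred on its median. The split by class and the share of all genes were not computed for those scalings.

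Between arrays of the same number, 22 of 32 genes were lower in the mutant for both numbers, against 31.0% of all genes and 35.4% of genes with a mean log2 signal of at least 6. They were 10 of 10 Pol III genes, 5 of 7 Pol I genes, 2 of 2 genes shared by Pol I and III, 4 of 5 common genes, and 1 of 7 Pol II genes (RPB9). The Pol II count depended on the scaling of the arrays, because it was 6 of 7 when each array was centred on its median (41.8% of all genes) and also to 6 of 7 after quantile normalization (39.1% of all genes). Set against the median of all genes within each number instead of against 0, 6 of 7 Pol II genes were again on the lower side for both numbers, as were 5 of 7 Pol I genes, 9 of 10 Pol III genes, 1 of 2 shared by Pol I and III and 4 of 5 common genes (35.9% of all genes). Values under the array median shift were therefore found for all 3 enzymes, and the count did not separate Pol II from the others under these scalings.

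**Figure D1:**
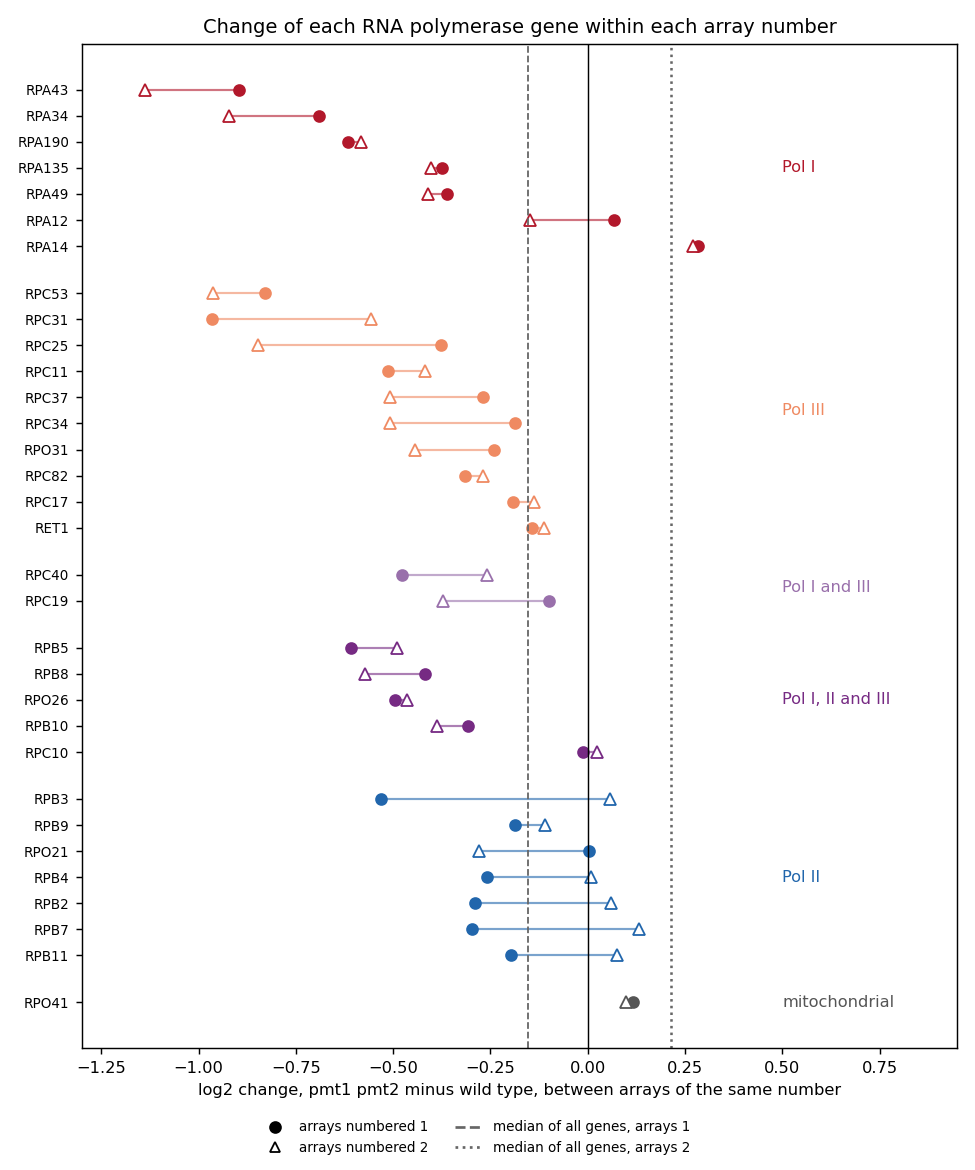
Log2 difference of each gene, pmt1 pmt2 minus wild type, between the arrays numbered 1 (filled circles) and between those numbered 2 (open triangles), with the genes ordered by their mean difference within each class. Dashed and dotted lines mark the median of all genes for each number, -0.15 and 0.21. All 10 Pol III genes lie left of 0 for both numbers, whereas the Pol II genes except RPB9 lie on or across 0.

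The size of the gap between the enzymes does not move with a scale factor common to a whole array. The Pol I median minus the Pol II median was -0.26 over the 4 arrays, -0.11 between the arrays numbered 1 and -0.47 between those numbered 2. For Pol III minus Pol II the values were -0.24, -0.032 and -0.53, and for the common genes minus Pol II they were -0.35, -0.16 and -0.52. The gap was therefore in the same direction for both numbers and larger on the arrays numbered 2. Pol I and Pol III differed little from each other, by -0.021 over the 4 arrays, -0.082 on the arrays numbered 1 and 0.065 on those numbered 2. The Pol I values rested on both array numbers being present in both groups: the Pol I median was -0.014 without pmt1 pmt2 array 1 and 0.010 without wild type array 2, and the Pol I minus Pol II gap was then 0.027 and 0.041. In the same fits the Pol III minus Pol II gap was -0.33 and -0.34. The median of the genes shared by Pol I and III ranged from -0.46 (without wild type array 1) to -0.15 (without wild type array 2), and that of the common genes from -0.61 (without wild type array 1) to -0.31 (without pmt1 pmt2 array 1). Of the 32 single genes, 26 moved by more than 1.5 times or turned sign when some array was left out, and the 6 that did not were RPA43, RPC53, RPC31, RPC11, RPO26 and RPB8.

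Of the 24 genes in the 4 classes other than Pol II and the mitochondrial enzyme, 19 had a log2 difference under the lowest Pol II value (-0.24, RPB3), 2 lay within the Pol II range (RET1 and RPC17) and 3 above it (RPA14, RPA12 and RPC10). The cut rests on 1 gene, since RPB3 had a standard error of 0.42 and was at 0.19 without wild type array 1. RPC19 was counted among the 19 at -0.23683, against -0.236744 for RPB3, which is all but a tie. The share of all genes under that value was not computed, so the count does not show a separation of the enzymes.

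Among the Pol I genes, the stalk subunit RPA43 had the lowest value. RPA43 (YOR340C), which contacts the initiation factor Rrn3, measured 90.5 and 97.0 on the pmt1 pmt2 arrays, against 168 and 213 on the wild type arrays. The groups were well apart, and the mutant was 2.02-fold lower (log2 difference -1.02 ± 0.35 (SE), limma adjusted p = 0.568). RPA14 (YDR156W), the other subunit of the stalk, was singled out after its values were seen because it had the opposite sign. RPA14 measured 541 and 786 in pmt1 pmt2, against 445 and 651 in wild type, a log2 difference of 0.28 for the arrays numbered 1 and 0.27 for those numbered 2. The groups overlapped, and the limma adjusted p was 0.994. RPA14 and the mitochondrial RPO41 were the 2 of 32 genes with higher signals in the mutant for both numbers, against 31.9% of all genes, but for RPA14 after centring the arrays the difference on those numbered 2 was -0.0064.

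RPA34 (YJL148W) and RPA49 (YNL248C) encode a pair that acts as a built-in initiation and elongation factor of Pol I. RPA34 measured 503 and 309 in pmt1 pmt2, against 812 and 585 in wild type. The groups did not overlap and the mutant was 1.75-fold lower (log2 difference -0.81 ± 0.42 (SE), limma adjusted p = 0.846). Its partner RPA49 measured 240 and 402 against 308 and 535, and here the array number separated the values more than the genotype did.

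The subunits of the active centre showed the same strong dependence on the array number. RPA190 (YOR341W), the largest subunit, measured 529 and 945 on pmt1 pmt2 arrays 1 and 2, against 810 and 1414 on wild type arrays 1 and 2. Each mutant array lay under the wild type array of its number, by -0.62 and -0.58 on the log2 scale, although the groups overlapped (1.51-fold lower, log2 difference -0.60 ± 0.47 (SE), limma adjusted p = 0.974). The RPA190 value was -0.18 without pmt1 pmt2 array 1 and -0.20 without wild type array 2, but as low as -1.02 without pmt1 pmt2 array 2. RPA135 (YPR010C), the second largest subunit, measured 623 and 1196 against 808 and 1581, with log2 differences of -0.37 and -0.40 within the numbers and a limma adjusted p of 0.994.

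RPA12 (YJR063W), the RNA cleavage subunit, measured 511 and 623 in pmt1 pmt2, against 488 and 690 in wild type, with no common direction between the numbers. When 1 array was left out, the sign of the log2 difference of RPA135, RPA49 and RPA12 turned in at least 1 case: without wild type array 2 the values were 0.096, 0.010 and 0.21.

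The 6 further probe sets of RPA190 allowed the largest Pol I gene to be read more than once, although all read the same RNA and are not replicates. All 7 had a log2 difference below 0, from -0.91 to -0.081, and 13 of 14 comparisons between arrays of the same number were lower in the mutant. The exception was a probe set at 15.8 on pmt1 pmt2 array 1 and 12.6 on wild type array 1, both under background. Of the 7 probe sets, 3 lay above background on every array, with log2 differences of -0.91, -0.62 and -0.60. The signal on the array numbered 2 was 1.75 to 5.51 times that on the array numbered 1 of the same group, so the array number moved every RPA190 probe set in both groups.

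**Figure D2:**
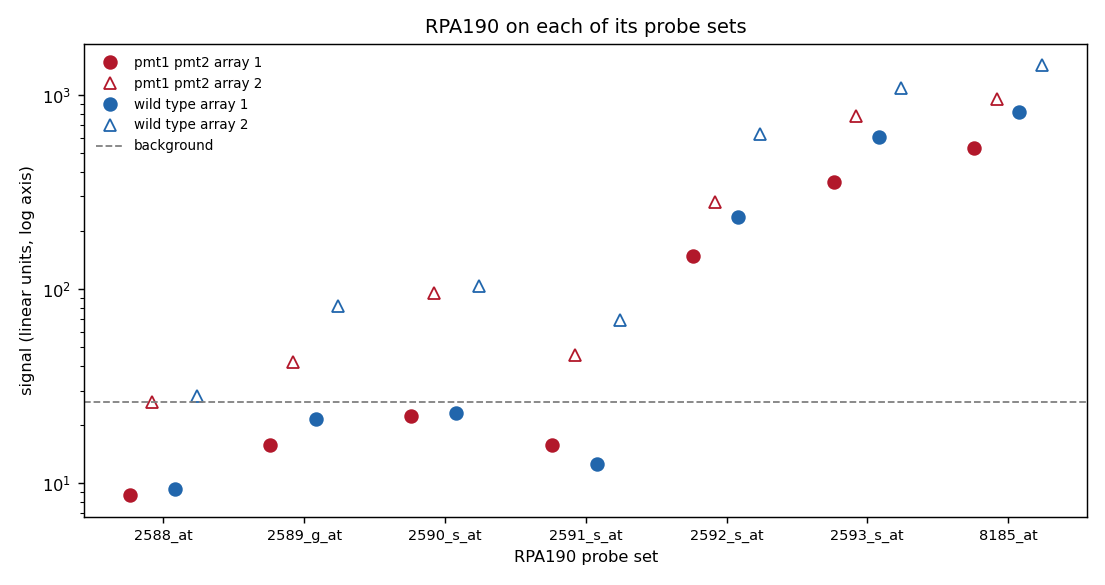
Signal of each RPA190 probe set on a log axis, with pmt1 pmt2 in red and wild type in blue, arrays numbered 1 as filled circles and arrays numbered 2 as open triangles, and the background level of 26.2 as a dashed line. On the 3 brightest probe sets, each mutant array lies under the wild type array of the same number.

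All 10 Pol III genes had a log2 difference below 0, and the lowest were in peripheral subunits. RPC53 (YDL150W), which with RPC37 serves termination and reinitiation, measured 104 and 90.4 in pmt1 pmt2, against 185 and 176 in wild type. The arrays of each group were close together and the groups far apart (1.86-fold lower, log2 difference -0.90 ± 0.34 (SE), limma adjusted p = 0.652). Its partner RPC37 (YKR025W) measured 39.1 and 43.7 against 47.1 and 62.2, also without overlap.

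RPC31 (YNL151C), of the subcomplex with RPC34 and RPC82 that takes part in initiation, measured 83.4 and 93.5 in pmt1 pmt2, against 163 and 138 in wild type (1.69-fold lower, log2 difference -0.76 ± 0.35 (SE), limma adjusted p = 0.773). The other 2 genes of that subcomplex had smaller differences, also without overlap between the groups. RPC34 (YNR003C), which contacts the initiation factor Brf1, measured 70.6 and 54.2 against 80.3 and 77.1. RPC82 (YPR190C) measured 32.0 and 28.4 against 39.8 and 34.2, close to the background level of 26.2.

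RPC25 (YKL144C), a stalk subunit, measured 54.1 and 75.6 in pmt1 pmt2, against 70.3 and 136 in wild type. Its groups overlapped and its difference depended on the number, at -0.38 for the arrays numbered 1 and -0.85 for those numbered 2 (log2 difference -0.61 ± 0.46 (SE), limma adjusted p = 0.966). RPC17 (YJL011C), its partner in the stalk, measured 73.9 and 101 against 84.4 and 111.

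RPO31 (YOR116C), the largest subunit of Pol III, measured 291 and 224 in pmt1 pmt2, against 344 and 304 in wild type, and the groups did not overlap (log2 difference -0.34 ± 0.36 (SE), limma adjusted p = 0.994). RET1 (YOR207C), the second largest, measured 390 and 586 against 430 and 634, the smallest difference among the Pol III genes (log2 difference -0.13 ± 0.41 (SE)). RPC11 (YDR045C), which serves RNA cleavage and termination, measured 181 and 223 against 258 and 298, without overlap. The log2 differences of RET1 and RPC17 were 0.15 and 0.032 without wild type array 2, and 0.17 and 0.058 without pmt1 pmt2 array 1, while those of the other 8 Pol III genes stayed below 0 whichever array was left out.

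Of the 5 common subunits, 4 had lower values in the mutant for both numbers. RPB5 (YBR154C), part of the jaw that grips DNA, measured 244 and 342 in pmt1 pmt2, against 373 and 480 in wild type (1.46-fold lower, log2 difference -0.55 ± 0.38 (SE), limma adjusted p = 0.940). RPB8 (YOR224C) measured 2014 and 1616 against 2693 and 2405, 1.41-fold lower (log2 difference -0.50 ± 0.35 (SE), limma adjusted p = 0.947). RPO26 (YPR187W), also known as RPB6, measured 476 and 588 against 671 and 811 (log2 difference -0.48 ± 0.36 (SE), limma adjusted p = 0.967). In all 3 genes both mutant arrays lay under both wild type arrays.

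The zinc-binding subunit RPB10 (YOR210W) measured 582 and 796 in pmt1 pmt2, against 720 and 1042 in wild type, lower within each number but overlapping. RPC10 (YHR143W-A), also known as RPB12, is the other small zinc-binding subunit and measured 299 and 477 against 302 and 469, almost the same on arrays of the same number (log2 difference 0.0057 ± 0.43 (SE), -0.087 after centring and -0.035 after quantile normalization). The platform subunits shared by Pol I and III were both lower without overlap, but each by a narrow margin, 253.6 in pmt1 pmt2 against 254.1 in wild type for RPC40 and 564.3 against 565 for RPC19. RPC40 (YPR110C) measured 182 and 254 against 254.1 and 303, and RPC19 (YNL113W) measured 527 and 564 against 565 and 731.

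**Figure D3:**
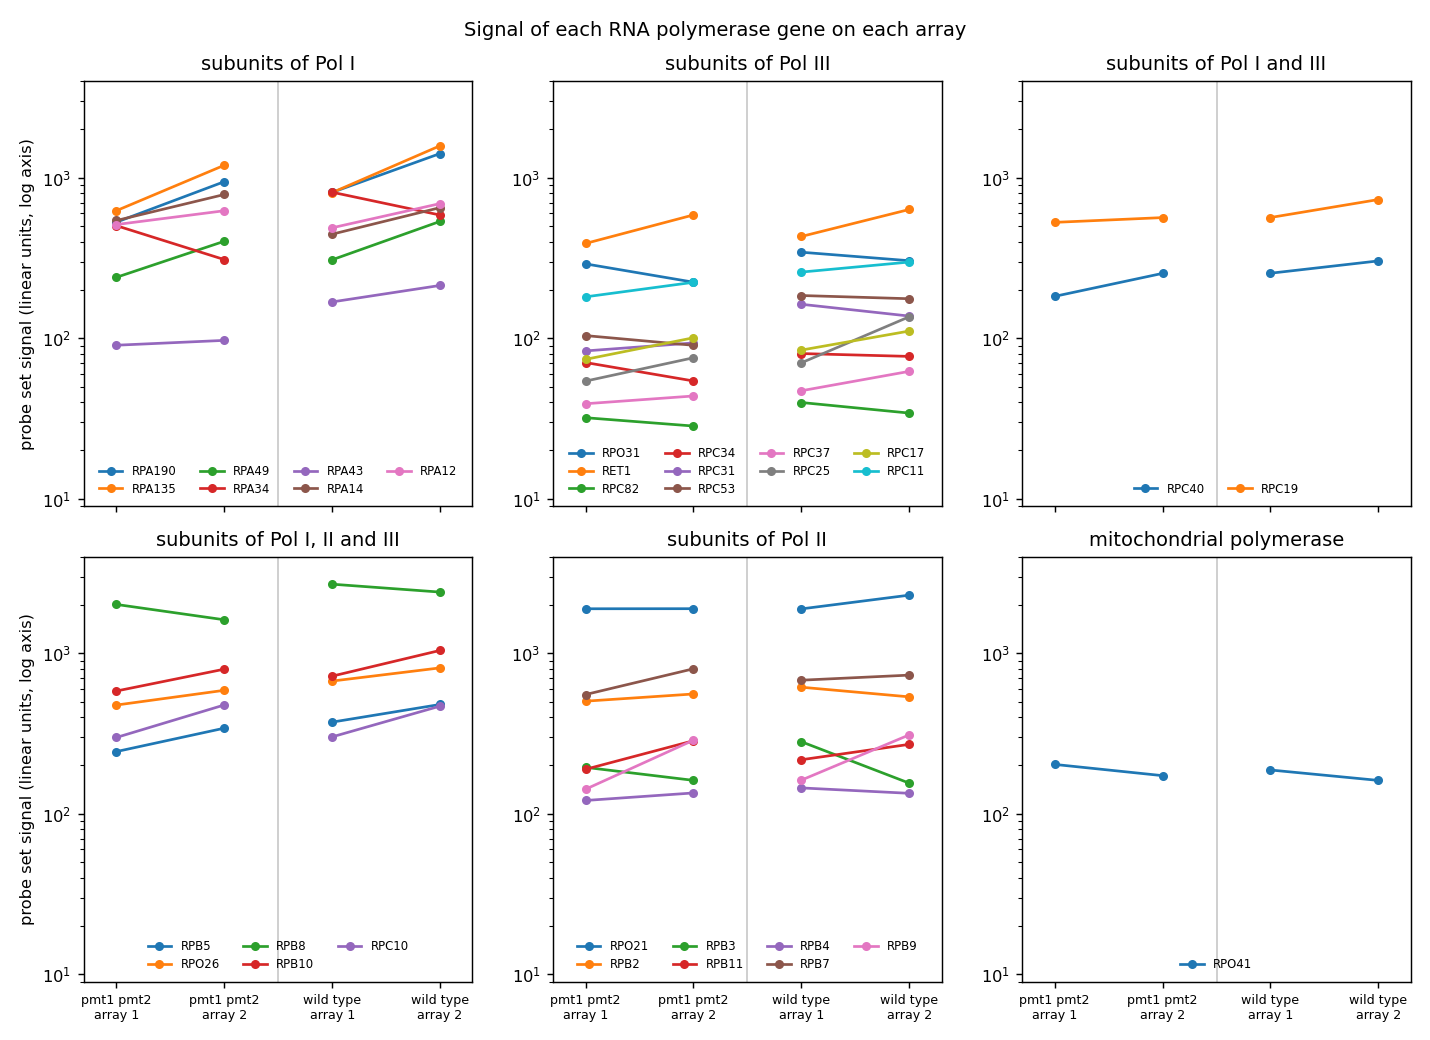
Signal of each of the 32 genes on each array, on a log axis, with 1 panel per class and pmt1 pmt2 arrays left of wild type arrays. A line joins the 2 arrays of a group. Steep lines in both groups, as for RPA190, RPA135, RPA49 and RPB9, show signals that were higher on both arrays numbered 2.

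In Pol II all 7 genes had a log2 difference below 0, from -0.24 to -0.061, but at the deposited scale only RPB9 was lower for both numbers. RPO21 (YDL140C), the largest subunit, which carries the repeated C-terminal tail, measured 1893 and 1895 in pmt1 pmt2, against 1890 and 2301 in wild type. The arrays numbered 1 differed by 0.0026 on the log2 scale and those numbered 2 differed by -0.28 (log2 difference -0.14 ± 0.35 (SE), limma adjusted p = 0.994). RPB2 (YOR151C), the second largest subunit, measured 503 and 558 against 615 and 535, and the groups overlapped (log2 difference -0.11 ± 0.34 (SE)).

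RPB3 (YIL021W), which forms the assembly platform with RPB11, had the lowest Pol II value. It measured 195 and 162 in pmt1 pmt2, against 281 and 155 in wild type, with wild type array 1 apart from the other arrays (log2 difference -0.24 ± 0.42 (SE), and 0.19 without wild type array 1). RPB9 (YGL070C), which affects the choice of start site and fidelity, measured 142 and 287 against 162 and 310, with log2 differences of -0.19 and -0.11 within the numbers. The remaining Pol II genes were RPB11 (YOL005C) and the stalk pair RPB4 (YJL140W) and RPB7 (YDR404C), with log2 differences of -0.061, -0.13 and -0.083, each negative for the arrays numbered 1 and positive for those numbered 2. The standard errors of the Pol II genes, 0.34 to 0.52, were larger in size than the gap of -0.24 between the Pol III and Pol II medians, so single genes do not show whether the enzymes differed or were alike.

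RPO41 (YFL036W), the mitochondrial polymerase, measured 203 and 173 in pmt1 pmt2, against 188 and 162 in wild type. Its log2 differences within the numbers, 0.12 and 0.098, lay on either side of 0 once the arrays were centred, at 0.21 and -0.18 (limma adjusted p = 0.994).

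Counterpart subunits of the enzymes were set side by side by their structural position. For the largest subunits the log2 differences were -0.60 in RPA190, -0.34 in RPO31 and -0.14 in RPO21, and for the second largest -0.39 in RPA135, -0.13 in RET1 and -0.11 in RPB2. The assembly platform had a median of -0.30 in Pol I and III and -0.15 in Pol II. The stalk pairs were at -0.37 in Pol I, -0.39 in Pol III and -0.10 in Pol II, with the members of the Pol I pair far apart. The pairs related to the Pol II factor TFIIF, RPA49 with RPA34 and RPC53 with RPC37, had medians of -0.60 and -0.64. The TFIIF genes TFG1 and TFG2 themselves had log2 differences of -0.50 and -0.33. In both, the mutant arrays lay under both wild type arrays, so lower values at this position were not particular to Pol I and III. At the position of the RNA cleavage subunits RPC11 and RPA12, RPB9 was taken as the Pol II counterpart. The order there was another, with -0.47 in RPC11, -0.15 in RPB9 and -0.041 in RPA12. None of these gaps was tested.

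**Figure D4:**
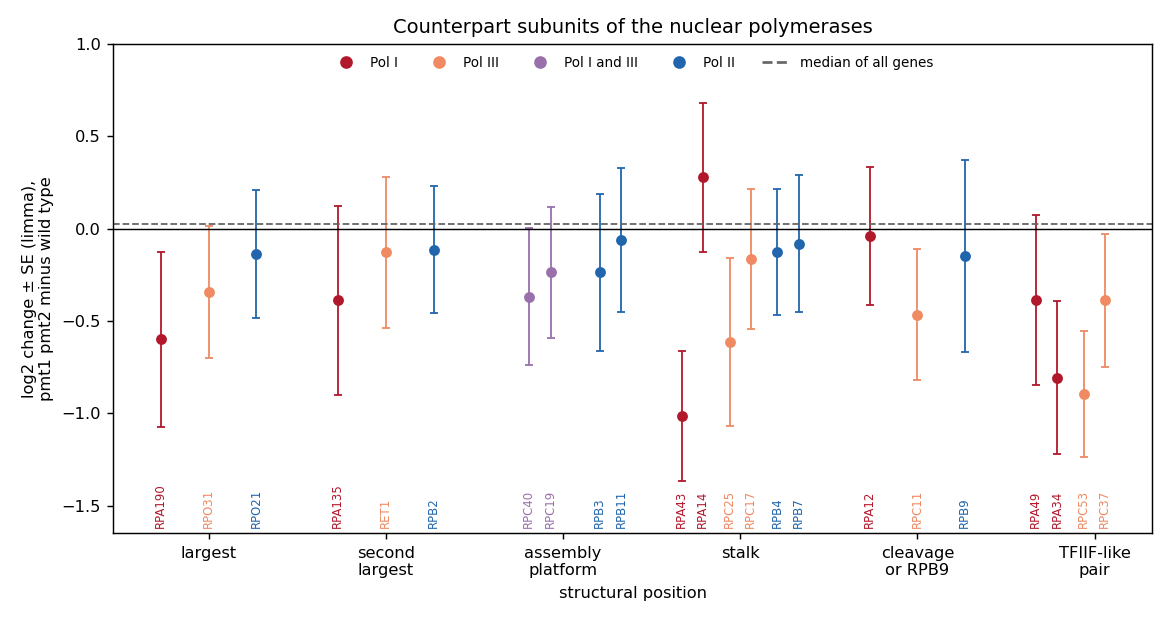
Log2 difference, pmt1 pmt2 minus wild type, with its limma standard error (n = 2 arrays per group), for subunits at the same structural position in each nuclear polymerase. Pol II values lie between -0.24 and -0.061, and RPA43, RPC53 and RPA34 lie lowest, with wide errors throughout.

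The array number moved the members as well. The difference between the arrays numbered 2 and 1, averaged over the groups, was larger in size than the difference between the genotypes in 16 of 32 genes and in 59.2% of all genes. Its median was 0.54 for the Pol I genes, 0.11 for Pol III, 0.42 for the common genes and 0.14 for Pol II, against 0.20 for all genes. The 3' to 5' ratio of the actin control given above moved with the array number, and its part in these values was not tested.

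Over the 4 arrays, genes that work with the polymerases had medians closer to 0 than the Pol I, Pol III and common subunits. The difference was not tested and depended on the array number. Between the arrays numbered 1 the Pol II factors were at -0.37 and the Pol III factors with the TATA-binding protein at -0.27. Pol I subunits were at -0.37 there and Pol III subunits at -0.29. The Pol I factors, assembly factors and PAC and RRPE regulators lay closer to 0 there, at -0.17, -0.20 and -0.11. Of 9 Pol I factors, 0 passed limma's test, against 0.389% of all genes. At that share, a count of 0 in this or the following lists says little about their genes. The median log2 difference of the Pol I factors was -0.067 (-0.17 on the arrays numbered 1 and 0.11 on those numbered 2). The median was 0.12 without pmt1 pmt2 array 1 and -0.41 without pmt1 pmt2 array 2. RRN9 (YMR270C), of the upstream activating factor, measured 33.2 and 39.9 in pmt1 pmt2, against 38.2 and 50.7 in wild type. RRN11 and UAF30, the other genes with the smallest p here, lay under background on every array, so no fold is given.

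Of the 10 genes for the TATA-binding protein and Pol III factors, 0 passed (0.389% of all genes), and the median log2 difference was -0.074 (-0.27 on the arrays numbered 1 and 0.072 on those numbered 2). The median ranged from -0.11 (without wild type array 2) to -0.012 (without wild type array 1). SPT15 (YER148W), the TATA-binding protein used by all 3 nuclear polymerases, measured 309 and 533 in pmt1 pmt2, against 452 and 911 in wild type (log2 difference -0.66 ± 0.50 (SE), limma adjusted p = 0.973). Its value was -1.17 without wild type array 1, but -0.15 once wild type array 2 was left out. TFC1 (YBR123C), of the factor TFIIIC, measured 42.9 and 52.4 against 60.1 and 61.2. MAF1 (YDR005C), the repressor of Pol III, measured 40.5 and 55.3 against 41.8 and 33.9.

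Of the 21 general factors and elongation factors of Pol II, 0 passed (0.389% of all genes), and the median was -0.082 (-0.37 for arrays 1, 0.11 for arrays 2, and 0.076 without pmt1 pmt2 array 1). SPT5 (YML010W), an elongation factor, measured 150 and 192 in pmt1 pmt2, against 224 and 319 in wild type (log2 difference -0.66 ± 0.38 (SE), limma adjusted p = 0.897). TFG1 (YGR186W), of TFIIF, measured 49.0 and 44.8 against 61.1 and 72.0, and TAF14 (YPL129W), shared by several Pol II complexes, 132 and 160 against 208 and 168.

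Of the 8 genes for assembly and nuclear import of the polymerases, 0 passed (0.389% of all genes), and the median was -0.15 (-0.20 for arrays 1, 0.025 for arrays 2, and 0.080 without wild type array 1). NPA3 (YJR072C), a GTPase for Pol II import, measured 104 and 53.3 in pmt1 pmt2, against 170 and 95.2 in wild type. BUD27 (YFL023W), which takes part in assembly of the 3 enzymes, measured 41.2 and 31.6 against 46.9 and 58.0. IWR1, of nuclear import, lay under background on every array.

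The 6 regulators that act through the PAC and RRPE promoter elements or on ribosome genes stood at a median of -0.046 (-0.11 for arrays 1 and 0.052 for arrays 2), and 0 passed (0.389% of all genes). SCH9 (YHR205W), a growth-signalling kinase, measured 211 and 126 in pmt1 pmt2, against 207 and 192 in wild type, STB3 (YDR169C) 35.0 and 38.1 against 50.1 and 35.7, and SFP1 (YLR403W) 76.5 and 197 against 80.5 and 153. MTF1 (YMR228W), the mitochondrial initiation factor that works with RPO41, measured 128 and 111 against 137 and 94.7.

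Of the other gene groups, those of ribosome assembly stood closest to the Pol I, Pol III and common subunits over the 4 arrays. This was not so between the arrays numbered 1. There Pol III, at -0.29, was nearer to ribosomal proteins (-0.18) than to ribosome assembly (-0.48). Pol I, at -0.37, was nearest to the Pol II factors, also at -0.37. The 52 genes named NOP, UTP or RRP with a number had a median log2 difference of -0.51 (-0.48 and -0.56 within the numbers), 46 of them were lower for both numbers (31.0% of all genes), and 0 passed limma's test (0.389% of all genes). The 75 genes of cytosolic ribosomal proteins had a median of -0.16 (-0.18 and -0.15), and 64 were lower for both numbers (31.0% of all genes). After quantile normalization 43 of the 75 were lower for both numbers (39.1% of all genes), against 47 of the 52 ribosome assembly genes, and set against the median of all genes the counts were 43 and 46 (35.9% of all genes). The subunit medians of Pol I, Pol III and the common genes thus lay between those of ribosomal proteins and ribosome assembly. Over the 4 arrays the Pol II median, -0.13, was near that of the ribosomal proteins. Within the numbers the Pol II median was -0.26 and 0.057, against -0.18 and -0.15, so this nearness did not hold for each number. The differences between these groups were not tested.

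**Figure D5:**
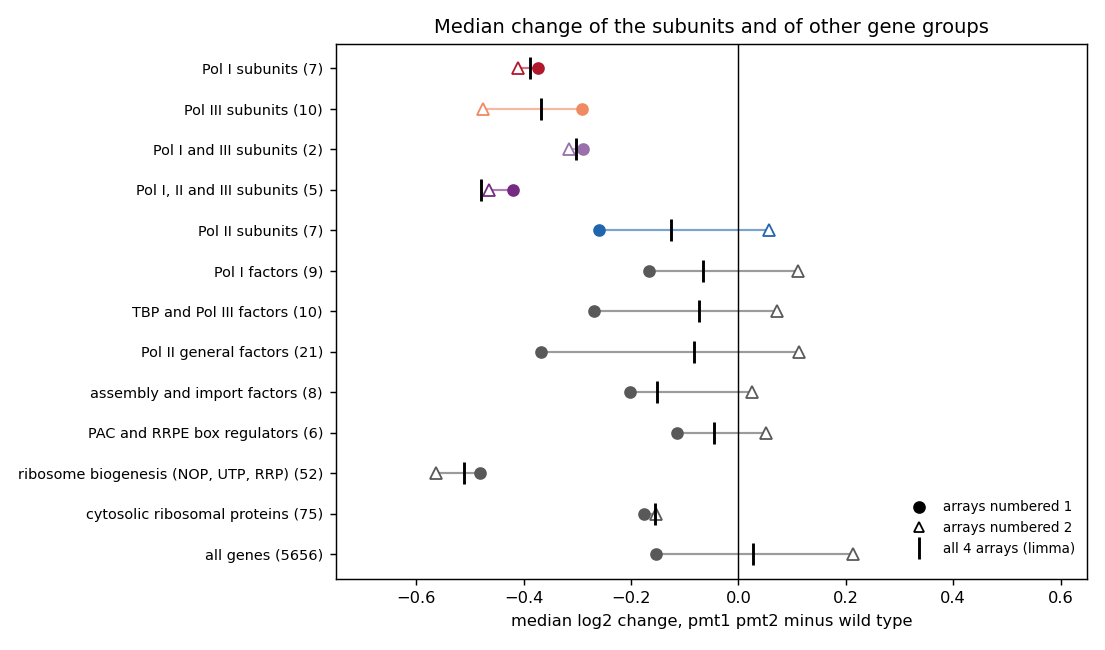
Median log2 difference, pmt1 pmt2 minus wild type, of each subunit class, of lists of other genes of the pathway and of all genes (number of genes in brackets), between the arrays numbered 1 (circles), between those numbered 2 (triangles) and over all 4 arrays (bars). Circles and triangles both lie left of 0 for Pol I, Pol III and shared subunits, ribosome assembly and ribosomal proteins, and on either side of 0 for Pol II, the factor lists and all genes.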

How the data were processed

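The deposited values are probe set signals on a linear intensity scale, from 0 to 12590.3, and per the submitters' processing notes the authors used GCRMA. Its version, settings and the scaling between arrays are not stated in the notes or labels, and exact zeros and unequal array medians (54.4 to 66.1) are unusual for GCRMA output, so which summary was deposited is uncertain. Zeros were replaced by 0.1 before taking log2, with no further normalization. Of 9335 probe sets, 6504 named 1 gene, 328 several and 2503 none. Background was set at the brightest signal among 19 bacterial and mouse control probe sets. The model was fitted in R 4.3.3 by limma 3.58.1 (lmFit and eBayes, two-sided, 2 residual degrees of freedom before moderation) over 5656 genes, with no filter, after a test on simulated data. The number of arrays limits the precision. Standard errors are limma's. The members, lists and naming rule (the 2 largest subunits of each enzyme, members with unadjusted p under 0.05, the 3 largest differences per class, RPO41, and up to 3 genes with the smallest p per list) were chosen with earlier results of these data known. Alternatives were quantile normalization, centring, other treatments of low signals and probe sets, other variance settings, the array number in the fit and leaving out each array. Signals of the remaining members were added after their values were seen. The R64 annotation served for names and for which genes are neighbours.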

Additional observations from a re-analysis of the deposited data

How the results depend on the processing

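The count of 0 of 32 subunit genes past limma's adjusted p under 0.05 held under the 11 alternatives that kept every array. The lowest adjusted p of any member there was 0.095 (RPA43 with a replicate block for the array number). In several of these fits PMT1, 9.08-fold lower in the mutant, did not pass either. Its limma adjusted p was 0.075 after quantile normalization, 0.059 after centring, 0.28 with low signals raised and 0.31 over every probe set. PMT2 was at 0.12 over every probe set. A count of 0 among members with smaller differences therefore says little in those fits. With that replicate block 0 of 32 genes passed, while of all 5656 genes 40 were called lower (0.707%) and 131 higher. At limma's unadjusted p under 0.05 with the block, 4 members were lower (RPA43, RPA34, RPC31 and RPC53, against 6.98% of all genes), against 2 without it. At that level 0 members were higher, against 621 of all genes. The block changed no call of the factor, assembly and regulator lists. Among the a cell markers, MFA2 passed with the block (limma adjusted p = 0.0083). The labels do not say that a number marks a shared batch. Arrays of the same number deviated together (r = 0.65 over 5656 genes, which are not independent), with only 2 pairs. Under the 11 alternatives that kept every array, 31 of 32 members kept their sign. Most of these alternatives leave a member's log2 difference unchanged by construction, so they could not turn a sign. Only quantile normalization and centring rescale the arrays, and averaging probe sets could move RPA190 alone. RPC10 was -0.035 after quantile normalization and -0.087 after centring, and MTF1 was -0.026 after centring. The Pol III minus Pol II gap was -0.31 after quantile normalization and -0.28 with a mean log2 signal of at least 6. The PAC and RRPE list median was -0.11 after quantile normalization and -0.14 after centring. Leaving out each array in turn gave medians from -0.49 to -0.37 for Pol III, -0.20 to -0.030 for Pol II, -0.78 to 0.010 for Pol I, -0.46 to -0.15 for Pol I and III, -0.61 to -0.31 for the common genes and -0.14 to 0.24 for all genes, and a Pol III minus Pol II gap from -0.35 to -0.24. List medians ranged from -0.41 to 0.12 for Pol I factors, -0.25 to 0.076 for Pol II factors, -0.11 to -0.012 for the TATA-binding protein and Pol III factors, -0.41 to 0.080 for assembly factors (0 to 1 called: IWR1, under background, without wild type array 1) and -0.23 to -0.044 for PAC and RRPE regulators. The sign turned in RPA135 (-0.87 to 0.096), RPA49 (-0.78 to 0.010), RPA12 (-0.29 to 0.21), RPO21 (-0.28 to 0.0033), RPB3 (-0.67 to 0.19), RPB11 (-0.36 to 0.23), RPB7 (-0.35 to 0.18), RPB9 (-0.66 to 0.36), RET1 (-0.42 to 0.17), RPC17 (-0.39 to 0.058), RPC10 (-0.33 to 0.34), RPO41 (-0.0093 to 0.22), UAF30 (-0.66 to 0.0024), SCH9 (-0.66 to 0.084), STB3 (-0.46 to 0.033), SFP1 (-0.54 to 0.83) and MTF1 (-0.20 to 0.33). Such fits leave the groups unequal in array number, and a lone array is assumed to vary like the other group. The cause of these moves was not tested.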

Other observations

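RPA43 and RPA190 are adjacent genes in the R64 annotation, with 0 genes between them and locus tags on opposite strands (YOR340C and YOR341W), so they are read away from each other. Both had lower signals in pmt1 pmt2 for both array numbers, by -0.90 and -1.14 for RPA43 and by -0.62 and -0.58 for RPA190. Between RET1 and RPB10 lie 2 genes, as between RPO26 and RPC82.

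The array carries control probe sets for the 3' end, the middle and the 5' end of SPT15, the gene of the TATA-binding protein, which serve as further readings of the same RNA. The 3' probe set measured 598 and 694 on pmt1 pmt2 arrays 1 and 2, against 974 and 1057 on wild type arrays 1 and 2. The middle probe set measured 302 and 732 against 460 and 1152, and the 5' probe set 95.3 and 262 against 137 and 369. All 3 were lower in the mutant for both numbers, with log2 differences of -0.66, -0.63 and -0.51. The 3' to 5' ratio was 6.27 and 2.65 in pmt1 pmt2, against 7.12 and 2.87 in wild type, so it followed the array number.

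Of 10 control probe sets for 18S and 25S ribosomal RNA, 9 lay under background on every array. The other, for 25S, measured 245 and 98.0 in pmt1 pmt2, against 638 and 37.0 in wild type, with opposite directions between the numbers.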
